A study of Drosophila melanogaster with 19 samples.

Results

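On the X chromosome, 10 genes carried a very strong binding site of MSL2 in the peak list of 1 fly line that overlapped no peak in the list of the other. The genes are Stt3A, Hmt4-20, Dop2R, Ns3 and boi, whose strong peak was listed in M1[wt] males, and sno, Socs16D, Atg5, CG2278 and BTBD9, whose strong peak was listed in wt males. They are 10 of the 2197 protein-coding genes of the X in the gene table used. They were chosen on the measured values themselves, namely a −log10 p above 1500 and the absence of an overlapping interval in the other list. Those values are therefore given as a description, without a test.

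The data are peak lists from chromatin immunoprecipitation sequencing (ChIP-seq) of MSL2 in whole adult males of Drosophila melanogaster. Both groups are Oregon-R males aged 3 days. The M1[wt] group carries the genotype given as M1[wt], and the other group is labelled wt. Each group has 1 listed sample, and these are 2 of the 19 samples of the series, which asks how the N-terminus of MSL1 brings the dosage compensation complex to the X. The promoter behind the M1[wt] construct, its insertion site and the state of the native msl-1 gene in that line are stated in none of the labels, so what limits the line as a model is unknown here. Tissues and cells were not separated. By the names the submitters gave the lists, both were called against preimmune rabbit IgG from adult males.

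MSL2 is the subunit of the dosage compensation complex that is made in males, and with its partner MSL1 it recognises GA-rich entry sites on the X. The other subunits are MSL3, the acetyltransferase MOF, the RNA helicase MLE and the noncoding roX RNAs. From the entry sites the complex spreads to active genes of the male X, where histone H4 becomes acetylated and transcription is raised. Strong sites are known to lie mostly within genes.

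A row of a list is an interval with a summit, the position of highest enrichment, and a −log10 p, which is the authors' strength for that peak. The strength is the lower of the values from 2 replicate calls, whose source the labels do not state. It grows with read depth, which is unknown here, so strengths are compared within a list and only set side by side between lists. The M1[wt] list held 3944 peaks, 1595 of them on the X, and the wt list held 3799, with 1615 on the X. As a check of the immunoprecipitation, lncRNA:roX1 held the strongest peak of both lists. The check failed at lncRNA:roX2, the other roX gene and a known entry site. There the M1[wt] list had no interval, and the wt list had a weak one 9633 bases wide, with a −log10 p of 22.2 and rank 1933. With 1 sample per group nothing below has a replicate check. Rows may also be missing from the lists as used here, for example through the matching of the replicate calls, which was not tested. A missing row is therefore not a measurement of absent binding.

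Among X peaks with a −log10 p above 1500, 5 of 51 in the M1[wt] list (9.80%) and 7 of 35 in the wt list (20.0%) overlapped no interval of the other list. Over all X peaks, whatever their strength, the shares without an overlap were 27.2% in the M1[wt] list and 24.6% in the wt list. The 5 M1[wt] peaks are those of the named genes. The wt list held 2 further peaks of this kind, in Pgant7 (X:18495381-18496018, −log10 p of 1881) and in Ubr1 (X:16956515-16957002, 1831). The weakest member inside the limit was boi, at 1552 in M1[wt] males. The first X peaks below the limit without a counterpart were much weaker, at 871 in Moe in M1[wt] males and at 745 in Raf in wt males. No autosomal peak of the wt list passed the limit, and 7 of the M1[wt] list did.

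Stt3A, which encodes a catalytic subunit of oligosaccharyltransferase, the enzyme that attaches sugar chains to proteins in the endoplasmic reticulum, held the strongest of the M1[wt] sites. Its peak spanned X:21049929-21051587 (Release 6 of the genome, 1-based, for all positions), ranked 9 in the M1[wt] list and had a −log10 p of 4433. The replicate calls gave 4433 and 4816, with the same summit base. The summit lay 345 bases from the lower-coordinate end of the gene, and the interval lay wholly inside it. The next M1[wt] interval, X:21051913-21054578, also lay partly in Stt3A and had a strength of 50.6. The wt list had an interval on either side of the strong site, at distances of 966 and 802 bases. The nearer, X:21052389-21054496, lay opposite that M1[wt] interval and had a strength of 33.1. Apart from the strong peak, 9 of the 10 M1[wt] intervals within 20 kb of Stt3A overlapped a wt interval, and all 9 wt intervals overlapped an M1[wt] interval. A further site, above 1500 in M1[wt] males only, stood at the edge of this window in both lists. It was X:21030129-21031982 in M1[wt] males (1503) and X:21030148-21031990 in wt males (1137).

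Hmt4-20 encodes the methyltransferase that places the higher methylation states on a lysine of histone H4. Its M1[wt] peak was the widest of the 10, with 7509 bases from X:649160 to X:656668. It covered 91.0% of the gene and ran 635 bases past its end, into SkpA, a gene for a subunit of ubiquitin ligases. Its strength was 2646, with 2646 and 3248 in the replicate calls, and its rank was 22. The calls placed their summits 36 bases apart, the largest such distance among the 10. The wt list had no interval in the gene. The nearest wt interval ended 1123 bases before the M1[wt] peak, with its summit in Roc1a, a RING subunit gene of ubiquitin ligases, and a strength of 56.3. On the other side the next M1[wt] interval was 29709 bases away, and the next wt interval 29714 bases away. The lists thus had nearly the same neighbours, and the wide interval stood between them in M1[wt] males alone.

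Dop2R encodes a dopamine receptor of the D2-like class and is the longest gene of the 10, with 58027 bases. Its M1[wt] peak, X:20023829-20025388, had a strength of 1959 (1959 and 2223 in the replicate calls) and ranked 31. It was the only interval of either list within 20 kb of the gene. The nearest other M1[wt] interval lay 120774 bases away. The nearest wt interval lay 122433 bases away, in Hers, and had a strength of 17.4. A stretch of about the same length around the site was thus without other peaks in both lists, 255700 bases in M1[wt] males and 255962 in wt males. Of 2197 protein-coding X genes, 16.4% had no M1[wt] interval and 16.0% no wt interval within 20 kb.

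Ns3 encodes a GTPase of the nucleostemin family. The M1[wt] peak at Ns3, X:1458266-1464080, was 5815 bases wide and had a strength of 1928 (1928 and 2349 in the calls). It covered 94.1% of this short gene and reached 3578 bases beyond it, over CG14787 and Lrpprc2. The next M1[wt] interval began 384 bases after it, outside Ns3, and had a strength of 24.8. The nearest wt interval stood at the same place, 394 bases from the strong peak, with its summit in O-fut2, a protein O-fucosyltransferase gene, and a strength of 16.0. Towards lower coordinates the next interval was far in both lists, 46429 bases in M1[wt] males and 48474 bases in wt males.

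boi encodes a co-receptor for Hedgehog and is related to ihog. The M1[wt] peak in boi, X:2444915-2447595, had a strength of 1552 (1552 and 1871 in the calls) and ranked 53. Its summit lay 2063 bases from the lower-coordinate end of the gene. The next M1[wt] interval, X:2447942-2448587, had a strength of 29.7. The nearest wt interval had almost the same ends, X:2447938-2448583, and a strength of 11.7. It began 343 bases after the strong peak, with its summit where boi overlaps z. A second weak pair followed it, with 12.2 in M1[wt] males and 15.3 in wt males. On the other side no interval followed for 90474 bases in M1[wt] males and for 78170 bases in wt males.

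**Figure D1:**
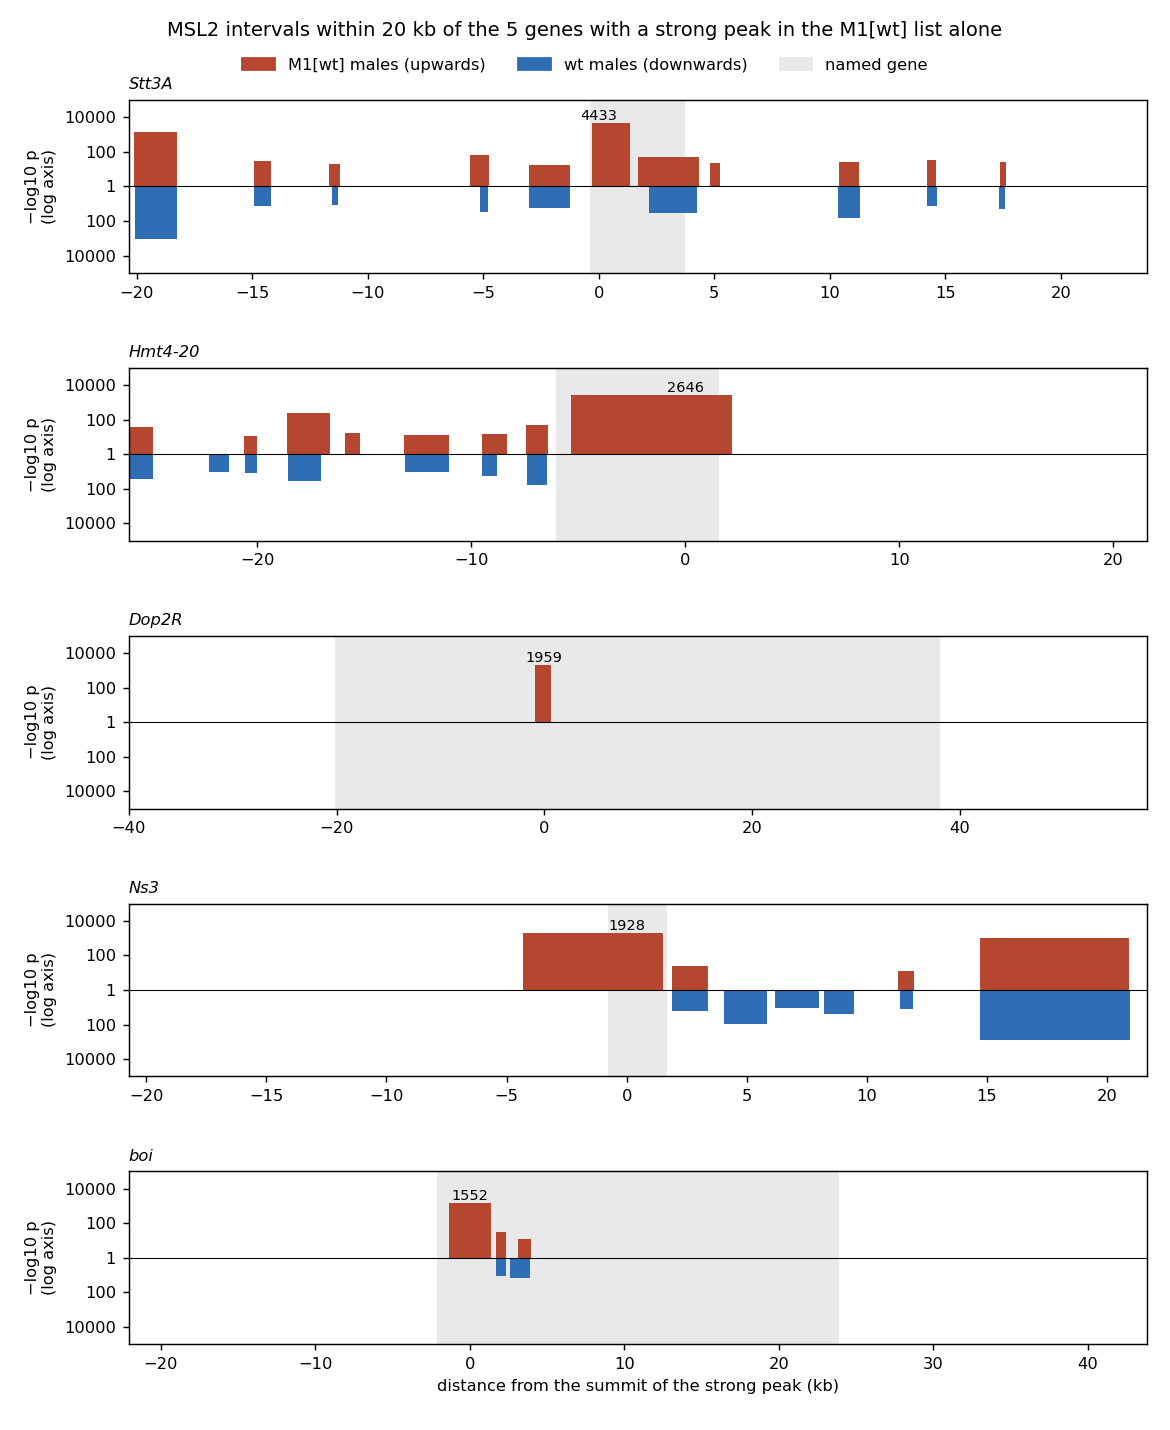
Intervals of the M1[wt] list (red, upwards) and the wt list (blue, downwards) around the 5 genes with a strong M1[wt] peak, with height showing −log10 p on a log axis and position given in kb from the strong summit. Grey marks the named gene. The strong intervals, between 1552 and 4433, face no wt interval, while most flanking intervals have one opposite them.

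Among the wt sites, sno held the second strongest peak of the whole wt list. The gene encodes Strawberry notch, a nuclear protein that acts in Notch signalling. The peak X:13199114-13201903 had a strength of 7171, with 8858 and 7171 in the replicate calls and summits 1 base apart. It lay wholly inside sno and also overlapped the protein-coding gene CG44437, which lay within 1000 bases of the summit. The M1[wt] list had no interval from 4881 bases before this peak to 6572 bases after it. Elsewhere in the gene M1[wt] males had 3 intervals. The strongest of these, X:13208475-13209048, had a strength of 772 and rank 132, and lay opposite a wt interval, X:13208498-13209040, with 429 and rank 129. The summits of that pair, X:13208783 in M1[wt] males and X:13208780 in wt males, lay 3 bases apart. The nearest M1[wt] interval had its summit in Coq5, a coenzyme Q synthesis gene, and was among the weakest of its list, at 10.8.

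Socs16D belongs to the family of suppressors of cytokine signalling. Its wt peak, X:17821266-17822465, ranked 3 with a strength of 6468 (7985 and 6468 in the calls). The first call was 1195 bases wide and the second 735, so the calls shared 60.8% of the interval, the lowest overlap among the 10. Their summits nevertheless lay 2 bases apart. In M1[wt] males the nearest interval was 3926 bases away, at the other end of Socs16D, X:17826391-17827653, with a strength of 45.3. The wt list had the matching interval, X:17826392-17827669, with 53.4. Of the flanking intervals, 2 of 4 in M1[wt] males and 2 of 6 in wt males overlapped the other list. At Atg5 2 of 5 and 2 of 6 did, and no other gene with flanking intervals had lower shares than these in both lists.

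Atg5 encodes a protein of the conjugate that extends the autophagosome membrane. The wt peak X:7320233-7321453 lay where Atg5, CG1677 and lncRNA:CR44357 overlap, so it cannot be assigned to one of them. Its strength was 5198 (6219 and 5198 in the calls) and its rank 7. M1[wt] males had 3 intervals in the gene, all on the lower-coordinate side of the wt peak, with strengths of 14.7, 20.6 and 36.6. The closest, X:7319431-7319958, ended 275 bases before it, the smallest gap of the 10. None of these 3 overlapped a wt interval, and their summits lay 1502 bases or more from the wt summit. On the other side both lists had an interval at nearly the same place, X:7324208-7325278 in M1[wt] males (95.3) and X:7324196-7325270 in wt males (67.5).

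CG2278 held a wt peak near its middle, X:8167275-8168802, with a strength of 3227 (4067 and 3227 in the calls) and rank 15. No M1[wt] interval overlapped the gene. The nearest, X:8164800-8165666, lay 1609 bases from the peak, with its summit in the odorant receptor gene Or7a and a strength of 18.3. A wt interval with 11.2 lay opposite it. All 8 M1[wt] intervals within 20 kb overlapped a wt interval. Of the 11 wt flanking intervals 8 were shared, and 1 of the others, X:8169068-8170062 (24.0), lay 266 bases beyond the strong peak.

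BTBD9 encodes a BTB-domain protein. Its wt peak, X:10771380-10772662, had a strength of 1956 (2435 and 1956 in the calls) and rank 23. The summit lay 203 bases from the higher-coordinate end of the gene, and the interval ran 508 bases past it, into CG15211. The nearest M1[wt] interval was 5481 bases away in Atg8a, an autophagy gene, and had a strength of 10.6. It overlapped no wt interval. In this window all 10 wt flanking intervals and 8 of 10 M1[wt] ones were shared. They include an interval 8.52 kb from the strong summit that ranked 85 in M1[wt] males (1041) and 190 in wt males (296).

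**Figure D2:**
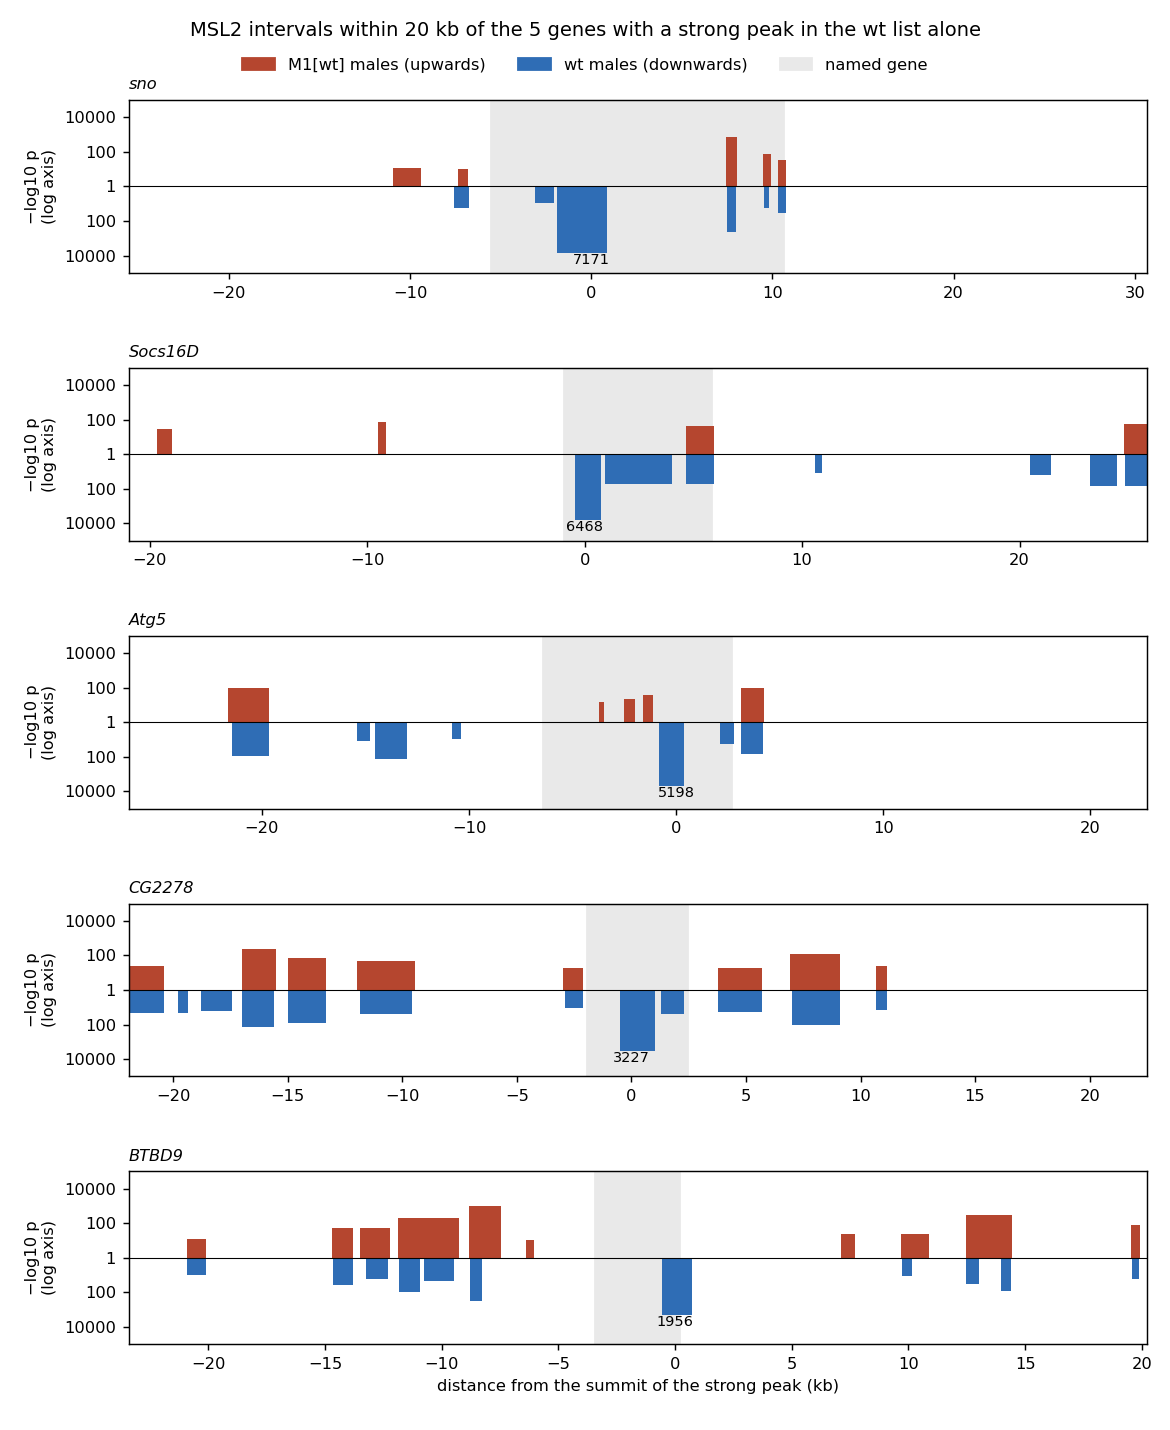
Intervals of the M1[wt] list (red, upwards) and the wt list (blue, downwards) around the 5 genes with a strong wt peak, with height showing −log10 p on a log axis and position in kb from the strong summit. Grey marks the named gene. The strong wt intervals, between 1956 and 7171, face no M1[wt] interval, and weaker intervals on both sides mostly stand in pairs.

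All 10 summits lay inside the named gene, as the choice of genes requires, and their place in it varied. The summit stood between 7.97% (boi) and 94.4% (BTBD9) of the way from the lower to the higher coordinate. The strand and the exons of the genes were not used here. The M1[wt] intervals had a median width of 2681 bases (1560 to 7509), and those of the 46 strong M1[wt] X peaks with a counterpart had a median of 2168 (492 to 11672). In the wt list the medians were 1283 bases (1200 to 2790) at the named genes and 1790.5 (503 to 4132) at the 28 strong X peaks with a counterpart. The widths at the named genes thus lay within the range of the other strong sites in both lists.

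The counterparts are described for each list on its own, since read depth is unknown and the lists differed in strength over the whole X. The median over all X peaks was 36.6 in the M1[wt] list and 22.2 in the wt list, and 51 and 35 X peaks passed 1500. Every strong wt X peak that overlapped an M1[wt] interval overlapped one with a strength of at least 1384, and 27 of these 28 partners were themselves above 1500. The 46 strong M1[wt] X peaks with a wt partner had partners from 318 upwards, with a median of 1621, and 27 of the 46 partners were above 1500. These are the same 27 pairs, seen from the other list. The lowest, 318, was at CanA-14F and the next, 472, at Trf4-1. No strong X peak of either list was paired with an interval below 100. At the 10 named genes the nearest interval of the other list, which did not overlap, had a strength between 10.6 and 56.3. Such an interval is a neighbouring site and not a counterpart, so its strength is not to be read against those of the partners.

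**Figure D3:**
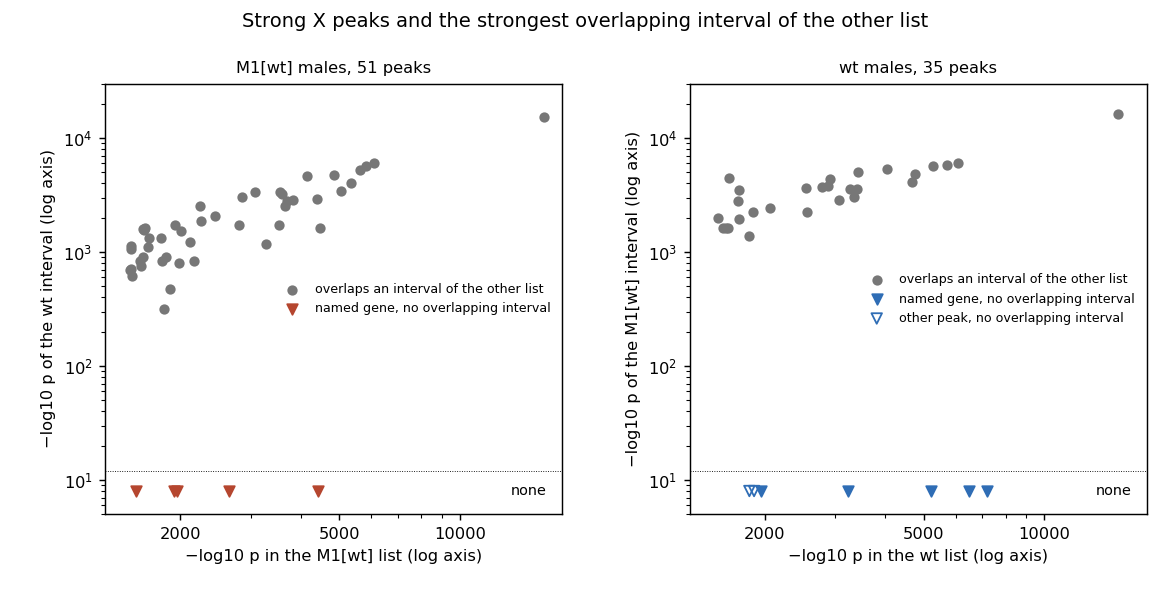
Each point is an X peak with −log10 p above 1500 in the M1[wt] list (left) or the wt list (right), on a log axis, plotted against the strongest overlapping interval of the other list, also on a log axis. Triangles under the dotted line have no overlapping interval. Filled ones are the 10 named genes, and the 2 open ones are Pgant7 and Ubr1. Paired peaks begin at 318 on the left and at 1384 on the right.

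By rank, the paired peaks most like the M1[wt] members were at CG18809 and COX6B, at CG4645 and at Top1, the topoisomerase gene. They ranked 30, 32 and 29 in M1[wt] males, where the median rank of the members was 31. Their strengths there were 1991, 1937 and 2006, with wt partners of 799, 1729 and 1532. The paired peaks most like the wt members, with a median rank of 7, were at hep, CG34408 and Rip11, with ranks 6, 8 and 5. Their M1[wt] partners had strengths of 5636, 4858 and 5822, and the wt peaks themselves 5271, 4759 and 5698. CG9132, at rank 9, was as close as Rip11, and its M1[wt] partner had a strength of 4144. In the first 6 pairs the summits lay 1 to 6 bases apart. Peaks of the same standing in a list thus included sites matched almost to the base and sites with no match.

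The replicate calls at the named genes had values like those at the other strong sites. The −log10 of the global irreproducible discovery rate measures agreement of the calls. At all 10 genes it was at its ceiling of 5, as it was at all 46 and 28 strong peaks with a counterpart. The strength of a peak is its lower call value, so the choice of genes already required both calls to be above the limit. The ceiling is therefore no separate check of the named genes, and it cannot tell them from other strong peaks. At the 10 genes the higher call exceeded the lower by 1.09 to 1.26 times. In M1[wt] males the second call was the higher at 5 of 5 named genes and at 46 of 46 paired strong peaks, and the first call was the higher at 22.4% of all X peaks. In wt males the first call was the higher at 5 of 5 and at 28 of 28, and at 79.4% of all X peaks. The call summits lay within 4 bases of each other at 9 of the 10 genes, Hmt4-20 being the exception.

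**Figure D4:**
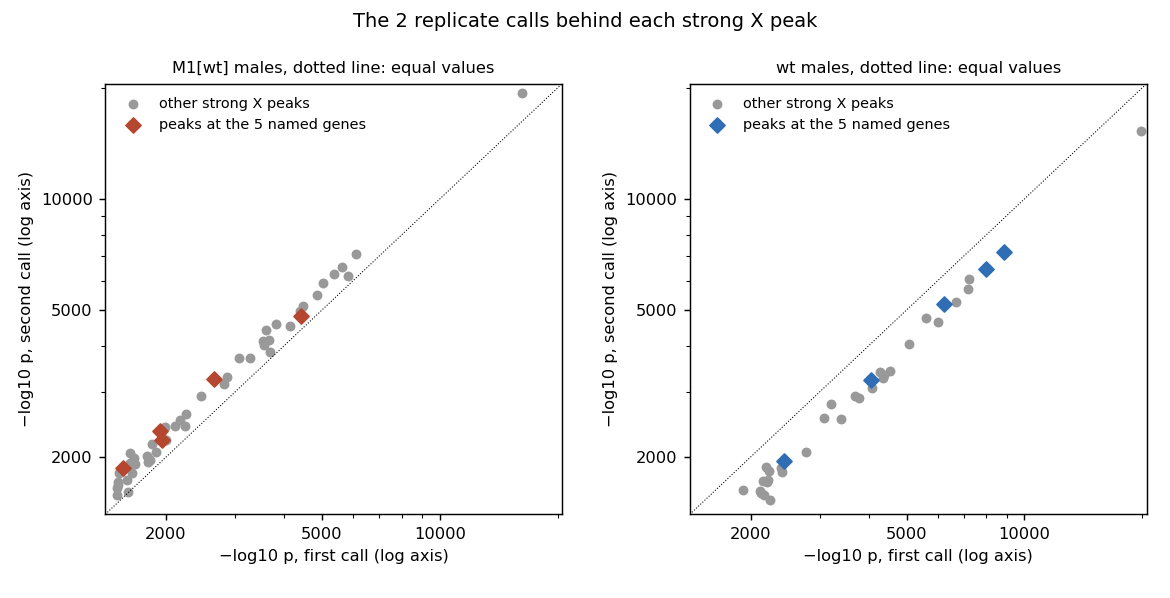
The −log10 p of the first and the second replicate call for X peaks above 1500, in M1[wt] males (left) and wt males (right), both on log axes. Diamonds mark the 5 named genes of each list and lie among the other strong peaks. All points are above the line of equal values on the left and below it on the right.

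Around the strong sites most of the weaker intervals stood in both lists. Within 20 kb of the 10 genes lay 59 M1[wt] and 67 wt intervals, of which 5 in each list are the strong peaks. Of the 54 other M1[wt] intervals, 44 overlapped a wt interval (81.5%), against 72.8% of all X peaks of that list. Of the 62 other wt intervals, 46 overlapped an M1[wt] interval (74.2%), against 75.4% of all X peaks. Neighbouring peaks are not independent, and the peaks of a list are not replicates. These shares are therefore given as a description, and their difference from the share over all X peaks was not tested. Paired flanking summits lay a median of 16.5 bases apart counted from the M1[wt] list and 16 counted from the wt list, against 21 and 22 over all X pairs. Within 20 kb of the strong peak itself, 20 of the 22 other M1[wt] intervals were shared at the M1[wt] sites (90.9%). At the wt sites 25 of the 36 other wt intervals were shared (69.4%). Around the strong X peaks with a counterpart the shares were 75.8% in the M1[wt] list and 75.6% in the wt list. Counted this way, the wt sites ranged from 1 of 4 at Socs16D to 10 of 10 at BTBD9. These differences were not tested.

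The flanking intervals were of ordinary strength, with medians of 31.0 in M1[wt] males and 21.5 in wt males, against 36.6 and 22.2 over all X peaks of the same list. Few were strong, with 4 M1[wt] and 2 wt intervals above 500. The flanking intervals without a partner reached at most 74.8 in M1[wt] males, near Socs16D, and 130 in wt males, near Atg5. The number of intervals near a gene varied widely, between 1 (Dop2R) and 11 (Stt3A) in M1[wt] males and between 0 (Dop2R) and 12 (CG2278) in wt males. The median over all X protein-coding genes was 5 in each list, with the middle 50% of genes at 2 to 8 in M1[wt] males and 2 to 9 in wt males.

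Counted by gene and not by interval, 5 of the 10 held at least 1 interval of the other list, none of them at the strong peak. These were Stt3A and boi among the M1[wt] sites and sno, Socs16D and Atg5 among the wt sites. The strongest such interval was 33.1 in Stt3A and 15.3 in boi in wt males, and 772 in sno, 45.3 in Socs16D and 36.6 in Atg5 in M1[wt] males. The other 5, Hmt4-20, Dop2R, Ns3, CG2278 and BTBD9, had none. Among all X protein-coding genes overlapped by an M1[wt] interval, 84.6% were also overlapped by a wt interval, and of those overlapped by a wt interval 82.6% were also overlapped by an M1[wt] interval. The 10 genes were chosen for the lack of an overlap, so their count is not to be read against these shares. At Hmt4-20 and Ns3 the strong peak covered 91.0% and 94.1% of the gene, leaving little of it for another interval.

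The stretch without peaks that the other list showed at each site ranged from 3.43 kb at Stt3A to 256 kb at Dop2R. The choice of sites required each stretch to hold the whole strong peak, and a long stretch holds a given site more readily. The shares below are therefore a description and not a test. At the M1[wt] sites the wt stretches measured 38.3 kb at Hmt4-20, 54.7 kb at Ns3 and 81.2 kb at boi. The median distance between neighbouring wt X peaks was 1873.5 bases, and 8.49%, 6.38% and 4.52% of such distances were at least as long as those at Hmt4-20, Ns3 and boi. At Stt3A, with the shortest stretch of the 10, 39.7% were, and at Dop2R 0.496%. With the strong peak set aside, the M1[wt] list itself had stretches of 38.3 kb, 52.6 kb and 93.5 kb at Hmt4-20, Ns3 and boi, and 2.93 kb at Stt3A. At the wt sites the M1[wt] stretches lay between 4.25 kb at Atg5 and 14.2 kb at sno, and 18.7 to 39.3% of the distances between neighbouring M1[wt] X peaks (median 2317.5 bases) were at least as long. There the lists matched less closely. The M1[wt] stretch was 13.8 kb at Socs16D, 4.25 kb at Atg5 and 5.87 kb at CG2278, against 32.3, 12.5 and 3.41 kb in the wt list with its strong peak set aside. At BTBD9 it was 13164 bases, against 18014 bases in the wt list, and at sno 14.2 kb, against 9.55 kb. The nearest peak above 1500 in the other list lay between 76.1 kb (BTBD9) and 552 kb (Socs16D) away at the wt sites. At the M1[wt] sites it lay between 180 kb (Stt3A) and 413 kb (Ns3) away. The median distance between neighbouring strong X peaks was 298 kb in M1[wt] males and 463 kb in wt males. That is a spacing between peaks and not a distance from a site to the nearest peak, so the measures are not alike.

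**Figure D5:**
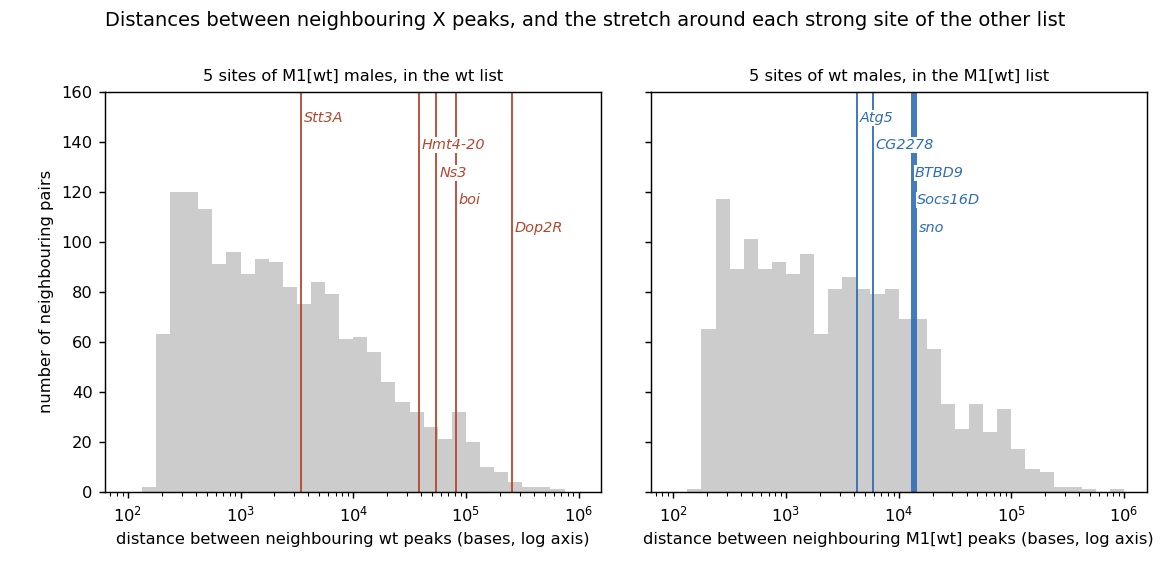
Grey bars count the distances between neighbouring X peaks of the wt list (left) and of the M1[wt] list (right), in bases on a log axis. Lines mark the stretch without peaks that this list showed around the strong sites of the other, from 3.43 kb at Stt3A to 256 kb at Dop2R on the left and from 4.25 kb at Atg5 to 14.2 kb at sno on the right. By the choice of sites each stretch holds a whole strong peak.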

How the data were processed

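MSL2 peak lists of M1[wt] and wt males were analysed, and the other 17 samples were not used here. MACS2, Bowtie2, cutadapt, deepTools and Picard, with the builds dm6 and dm3, appear in the submitters' processing notes without roles or settings. The deposited columns used hold −log10 p values of a peak and of its replicate calls, and −log10 irreproducible discovery rates. The 20-column layout is that of an irreproducible discovery rate comparison. The peak value equals the lower call value in all 7743 rows. Positions and symbols come from the RefSeq table of Release 6, in which all 10 genes matched by symbol, and where lncRNA:roX1 overlaps the strongest peak of each list. The table gives no strand or exons, and no sequence was used.

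Intervals overlapped when they shared at least 1 base. Gaps are distances between the nearest end bases. Windows ran 20 kb beyond each gene. Genes were assigned to summits inside them, or within 1000 bases. The overlap routine was tested on a copy of the wt X list, with randomly chosen peaks taken out and the rest shifted by a few bases. Python 3.11.15 with pandas 2.3.3 and scipy 1.17.1 was used. No test between groups was made, since each has 1 sample.

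The members, lists and limits were chosen with earlier results of these data known. The 10 genes were named by that choice, others as holders of, or neighbours within 1000 bases of, a strong or nearest summit, or as the 3 paired strong peaks nearest in rank. Pgant7, Ubr1, CG9132, Moe, Raf, CanA-14F, Trf4-1, SkpA and Lrpprc2 were named after their values were seen.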

Additional observations from a re-analysis of the deposited data

How the results depend on the processing

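No paired analysis was possible because each group has 1 sample, and no replicate could be left out for the same reason. The count of strong X peaks without a counterpart, 5 in M1[wt] and 7 in wt males, was 2 and 4 with the limit raised to 2000. When a counterpart within 1000 bases counted as shared, 2 remained in M1[wt] males (Hmt4-20 and Dop2R) and 6 in wt males. With summits within 250 bases in place of overlap, a limit of 1000, or either replicate call alone, the counts stayed within 1.5 times. The nearest peak of the other list lay over 1000 bases away at 6 of 10 genes, and at 10 measured from summit to summit. Intervals near the genes numbered 91 in M1[wt] and 107 in wt males within 50 kb, and 43 in wt males within 10 kb. With the strong peaks included, 74.6% of the M1[wt] and 68.7% of the wt intervals within 20 kb overlapped the other list. With summits within 250 bases in place of overlap, these shares were 66.1% and 58.2%. Read depth is unknown, so a site without binding, a site below the authors' limit and a row lost before the lists were made cannot be told apart.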

Other observations

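Near BTBD9 the lists cut the same stretches differently. M1[wt] males had 1 interval, X:10760063-10762710 (−log10 p of 199), where wt males had 2, X:10760103-10761007 (96.7) and X:10761191-10762457 (22.8). At X:10784408-10786376 the M1[wt] interval (291) again lay opposite 2 wt intervals, X:10784433-10784993 (31.6) and X:10785911-10786350 (80.1). For this reason the windows hold 44 shared flanking intervals counted in M1[wt] males and 46 counted in wt males.

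The interval nearest to a strong site in the other list was itself shared at 8 of the 10 genes, Atg5 and BTBD9 being the exceptions. Over all X peaks 72.8% of M1[wt] and 75.4% of wt intervals were shared, so this count is near the general level.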
